A study of Oryza sativa with 23 samples.

Results

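The root response to excess iron was compared between the rice varieties Hacha and Lachit. For each gene, the log2 fold change of excess iron against control in Lachit roots was set against that in Hacha roots, and the difference of both responses was tested. Of the 23 libraries of the series, 11 came from whole roots and entered this test: 3 of Hacha in control solution, 2 of Hacha in excess iron, 3 of Lachit in control solution and 3 of Lachit in excess iron. All plants were 11 days old (Oryza sativa). Hacha was bred from CRM 53 and IR 64, and Lachit from CRM 13-3241 and Kalinga 2. Control plants stayed in a full-strength nutrient solution holding 50 µM iron as a chelate at pH 6.2, and treated plants spent their last 2 days in that solution with 15 mM iron sulfate at pH 5.2. Iron, sulfate and acidity changed together and cannot be told apart. The labels do not say whether replicates came from separate plants, so p-values refer to the spread among the libraries at hand, which could be technical.

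As background, iron is needed in every plant cell, but free ferrous iron helps to form damaging oxygen radicals. Rice roots take up ferrous iron and also iron bound to chelators that they secrete. In flooded acid soils ferrous iron builds up, and rice roots are known to limit its effects by oxidising it at the root surface, by excluding it, and by storing it in ferritin and in vacuoles. Rice varieties differ in how well they stand excess iron.

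No function is assigned to any gene here. The files name genes by identifier alone, and the reference table used here matched 1 of the 35679 gene identifiers, without a symbol. The account therefore describes the direction, size and shape of the differing responses, and 8 genes by identifier. For the same reason the root label was not checked against marker genes.

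The 11 root libraries held between 16659607 and 31533824 estimated counts, and the 2 Hacha libraries in excess iron were the shallowest. Replicates of a root group had a Pearson r of 0.99 to 0.995 on log2 CPM, which are counts scaled to library size, and no pair of replicates agreed within sampling noise.

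Roots of the varieties differed in their response in 5332 of 27479 tested genes, which is 19.4%. The log2 response was higher in Lachit in 3415 genes (12.4%) and lower in 1917 (6.98%), at an adjusted p below 0.05 in edgeR's quasi-likelihood test with Benjamini-Hochberg adjustment. Among the genes with a higher response in Lachit, the median log2 fold change was -1.48 in Hacha and -0.21 in Lachit. Among those with a lower response in Lachit, the medians were 1.15 in Hacha and 0.09 in Lachit. The typical gene of either kind thus moved further from its control level in Hacha. These medians describe genes chosen by the same test. The split between directions depended on scaling: 64.0% of the called genes were higher in Lachit with TMM scaling, 57.8% with DESeq2's size factors in edgeR, 79.2% with library totals and 78.0% on log2(TPM + 1) with limma. With library totals the median log2 difference over all tested genes was 0.25 instead of 0.09, so directions are relative to the typical gene. Without the first Hacha excess-iron library the test called 3434 genes, 2099 higher and 1335 lower in Lachit, and without the second 2801, 1940 higher and 861 lower. A fit of root and leaf libraries together called 2057 genes, and 889 passed against a minimum log2 difference of 1.

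**Figure D1:**
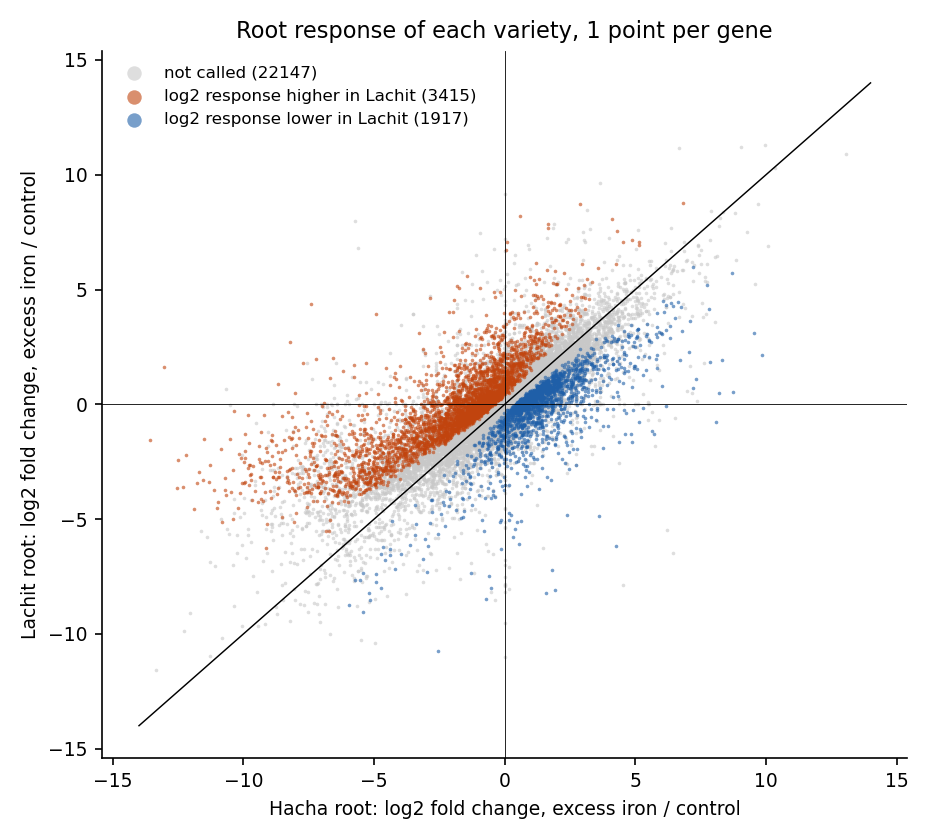
Log2 fold change of excess iron against control in Lachit roots (y axis) against that in Hacha roots (x axis), 1 point for each of the 27479 tested genes, with the line of equal response. The 3415 genes with a higher response in Lachit lie above the line, mostly at negative Hacha values, and the 1917 with a lower response lie below it, mostly at positive Hacha values.

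The differences were larger on the upper side. The median size of the log2 difference was 1.49 for genes with a higher response in Lachit (quartiles 0.932 and 2.39) and 1.14 for genes with a lower response (quartiles 0.728 and 1.87). A difference of at least 2-fold was found in 2440 (71.4%) of the former and in 1075 (56.1%) of the latter, and one of at least 8-fold in 556 (16.3%) and 177 (9.23%). In 162 called genes, at least 1 of the 4 groups had no read, so their fitted differences depend on the prior count. Of these, 134 had a higher and 28 a lower response in Lachit. With a floor of 3 counts over such a group, the median size was 1.47 for genes with a higher response and 1.14 for those with a lower one. Over all called genes it was 1.35, against 1.36 as fitted. As such genes are few, the medians could hardly move, and the counts of 2-fold and 8-fold differences were not recomputed with the floor. In 110 called genes, 1 of the varieties had fewer than 30 reads over all its root libraries, so a response there was barely measurable.

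The share of genes called depended on expression level. The tested genes were split into 5 groups of equal size by their mean CPM over the root libraries. In the lowest group, with a median of 0.582 CPM, 8.26% were called, and the median standard error of the log2 difference was 0.872. In the next group, with a median of 2.95 CPM, 19.3% were called. In the upper 3 groups, with medians of 9.94, 26.3 and 82.7 CPM, the shares were 23.5%, 23.5% and 22.5%. The median size of a called log2 difference was 3.12 in the lowest group and 0.869 in the highest, where the median standard error was 0.177. Called genes were therefore found at all levels. The smaller differences that passed the test lay mainly among the more abundant transcripts. From the lowest to the highest group, 5.15%, 13.8%, 16.6%, 14.1% and 12.5% of genes had a higher response in Lachit. A lower one was found in 3.11%, 5.46%, 6.95%, 9.37% and 9.99%. Whether differences on the upper side were also larger at equal level was not tested.

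Most of the differing genes changed further in Hacha. In 3662 of the 5332 called genes (68.7%), the change passed the threshold in Hacha and was either larger there or did not pass it in Lachit. In 1231 genes (23.1%) this held for Lachit, in 412 (7.73%) the varieties moved in opposite directions, and 27 genes passed the threshold in neither. Of all tested genes, 62.3% changed in Hacha, 29.6% upward and 32.7% downward, and 58.7% in Lachit, 29.4% upward and 29.3% downward. These shares count changed genes in each variety and do not compare the sizes of the changes. The share of all tested genes with the larger change in Hacha was not computed. The 68.7% is therefore not shown to be particular to the called genes. Each called gene passed the test of the difference itself. That test covers the size and the direction of a response together, and some of the calls are expected to be false at the threshold used. A gene placed in 1 variety alone missed the threshold in the other, which does not show that it was unchanged there.

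The largest of these groups consisted of genes that fell in both varieties but further in Hacha. It held 1503 genes, 44.0% of those with a higher response in Lachit. Their median log2 fold change was -3.34 in Hacha and -1.51 in Lachit, and their median difference between the varieties was 0.03 in control and 1.63 in excess iron. A further 822 genes fell in Hacha alone, with medians of -1.23 in Hacha and 0 in Lachit. Together, these 2325 genes, 43.6% of all called genes, were repressed in Hacha and held nearer to their control level in Lachit.

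Induction was also stronger in Hacha for many genes. In both varieties 717 genes rose, and further in Hacha, with median log2 fold changes of 1.87 and 0.87. Another 620 rose in Hacha alone, with medians of 1.08 in Hacha and 0.01 in Lachit. Genes induced further in Lachit were fewer: 268 rose in both varieties and more in Lachit, with medians of 1.18 in Hacha and 2.63 in Lachit, and 546 rose in Lachit alone, with a Lachit median of 1.34. Stronger repression in Lachit was found in 116 genes that fell in both, with medians of -1.44 and -3.12, and in 301 genes that fell in Lachit alone, with a Lachit median of -1.34.

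**Figure D2:**
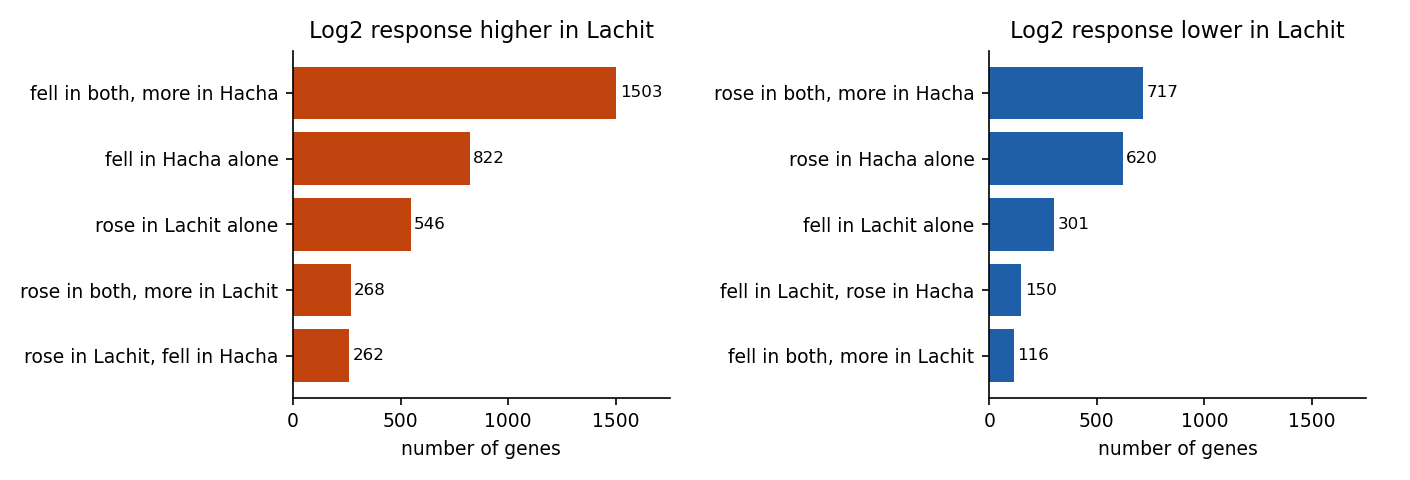
Number of called genes (x axis) by the way they changed in the 2 varieties (y axis), for genes with a higher (left) and a lower (right) log2 response in Lachit. The longest bars are the 1503 genes that fell in both and more in Hacha and, on the right, the 717 that rose in both and more in Hacha; genes called in neither variety are not drawn.

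These groups made up visible parts of the root transcript pool. The genes that fell in both varieties and more in Hacha held 9.43%, 9.89% and 10.7% of the counts in the Hacha controls and 9.56%, 9.82% and 10.6% in the Lachit controls. In excess iron they held 1.86% and 1.67% in Hacha and 4.17%, 3.85% and 3.88% in Lachit. The control libraries of the varieties overlapped, and every Lachit excess-iron library lay above both of Hacha. The genes that rose in both and more in Hacha went from 3.05%, 2.68% and 2.53% to 9.3% and 9.99% in Hacha, and from 3.01%, 2.74% and 2.73% to 5.68%, 5.64% and 5.35% in Lachit. Here too the controls overlapped and the excess-iron libraries did not. For genes that rose in Lachit alone, the share was 1.87%, 1.86% and 1.77% in Hacha control and 1.61% and 1.5% in Hacha excess iron, against 1.48%, 1.32% and 1.3% in Lachit control and 2.82%, 2.81% and 3.22% in Lachit excess iron. Their control libraries were lower in Lachit than in Hacha and their excess-iron libraries higher. These shares describe genes chosen by the same libraries and carry no test.

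**Figure D3:**
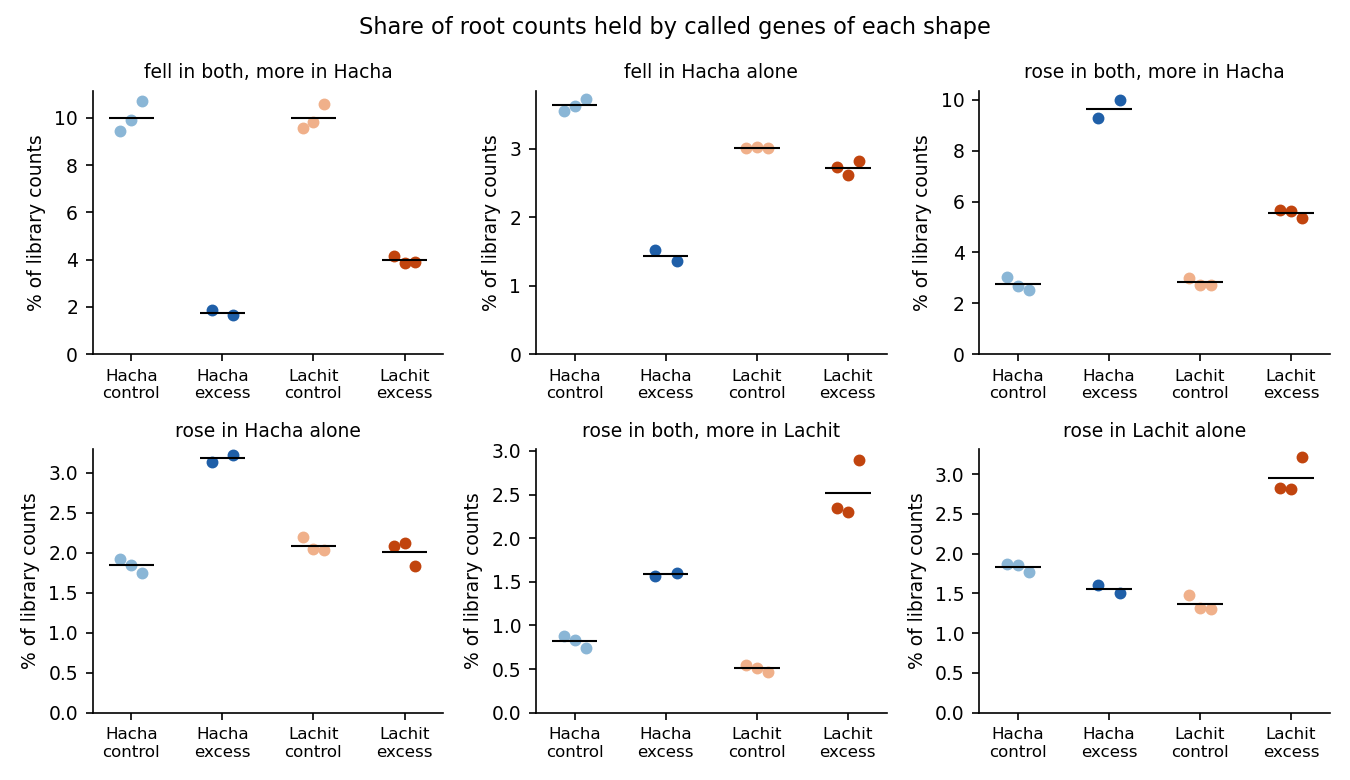
Percent of each root library's counts (y axis) held by the called genes of 6 kinds of response, by group (x axis); points are libraries and lines are group means. For genes that fell in both and more in Hacha, controls of both varieties lie between 9.43% and 10.7%, while excess-iron libraries lie at 1.67% and 1.86% in Hacha and between 3.85% and 4.17% in Lachit.

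For most called genes the difference between the varieties passed the threshold in excess iron but not in control solution. Missing the threshold in a solution does not show equal levels there. The direct comparison of Lachit with Hacha in the same fit found 3129 called genes (58.7%) to differ in excess iron but not in control. In 2036 of these the log2 response was higher in Lachit, with a median log2 difference between the varieties of 1.42 in excess iron. In 1093 the response was lower, with a median of -0.99. Another 868 genes (16.3%) differed in control but not in excess iron. In 532 of them the response was higher in Lachit, and the median log2 difference between the varieties went from -1.22 in control to 0.18 in excess iron. In 336 the response was lower, with 1.04 going to -0.2. In 473 genes (8.87%) the order of the varieties turned. In these, Lachit was the lower variety in control and the higher in excess iron for 314 genes, and the reverse for 159. In 741 genes (13.9%) the varieties differed in both solutions in the same direction, and in 121 in neither. Over all tested genes, 29.7% differed in control, where Lachit was higher in 14.5% and lower in 15.2%, and 46.7% differed in excess iron, where it was higher in 26.6% and lower in 20.1%. These comparisons share libraries with the test of the difference and are given as a description. The median size of the log2 difference between the varieties was 0.38 in control and 1.07 in excess iron for the called genes, against 0.34 and 0.575 for all tested genes.

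Of the called genes, 8 are described in every library; for this, at least 10 CPM were asked in the highest root group and at least 30 reads in the roots of each variety, which 3791 called genes met. The pair with the largest and the pair with the most negative log2 difference among the 3791 come first. OS11G0484450, on chromosome 11 by its identifier, has 1 transcript of 1832 bases in the files. In Hacha roots it stood at 53.5, 50.6 and 84.2 CPM in control and had no read in either excess-iron library. In Lachit roots it stood at 79.3, 96.4 and 87 CPM in control and at 17.5, 39.6 and 33.6 CPM in excess iron. Excess iron lowered it in both varieties without overlap, at least 713-fold in Hacha by the floor of 3 counts over the group, and by 1.53 on the log2 scale in Lachit (a log2 fold change of -1.53, SE 0.29). The adjusted p of the difference was 0.000294 in edgeR's quasi-likelihood test, and 0.0703 when root and leaf libraries shared a fit, the highest of its alternatives, which began at 5.24e-11.

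OS01G0843800, on chromosome 1 with 1 transcript of 2061 bases, had the same shape of response. Its level was 29.2, 30 and 28.8 CPM in Hacha control and 18.9, 31.2 and 28.9 CPM in Lachit control, so the controls overlapped. In excess iron it had no read in either Hacha library and 4.59, 8.16 and 1.69 CPM in the Lachit libraries. The fall was at least 339-fold in Hacha, and the log2 fold change in Lachit was -2.42 (SE 0.41; adjusted p of the difference 0.00399 by edgeR). The fitted log2 differences, 12.05 for OS11G0484450 and 10.07 for OS01G0843800, depend on the prior count and are no bound.

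In the other direction, OS03G0562400 on chromosome 3, with 1 transcript of 1853 bases, was induced in Hacha. It went from 0.774, 0.453 and 0.391 CPM to 10.9 and 20.1 CPM there, a log2 fold change of 4.81 with an SE of 0.36. In Lachit it had 0.342, 0.451 and 0.236 CPM in control and 0.114, 0.193 and 0.0913 CPM in excess iron, which rest on 27 and 11 reads. The Hacha groups did not overlap, and the log2 difference was -6.09 (SE 0.64, adjusted p = 0.000316 by edgeR).

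OS01G0710700 on chromosome 1, with 1 transcript of 1810 bases, was instead repressed further in Lachit. Its Lachit controls stood at 17.7, 17.6 and 29.2 CPM, and its excess-iron libraries at 0, 0.193 and 0.183 CPM, a log2 fold change of -7.36 (SE 0.47). In Hacha it was low in both solutions, at 1.88, 1.74 and 2 CPM in control and 1.01 and 0.473 CPM in excess iron. All excess-iron libraries lay below all controls of their variety, and the log2 difference was -6.08 (SE 0.76, adjusted p = 0.000727 by edgeR). Leaves held far more reads of this gene than roots: it stood at 153, 202 and 171 CPM in Hacha control leaves and 268, 291 and 306 CPM in those of Lachit, and at 28.2, 31.7 and 23.8 CPM and 25.4, 16.1 and 46 CPM in excess iron. It fell in the leaves of both varieties, and the difference of the leaf responses did not pass the threshold (log2 difference -0.65, SE 0.44, adjusted p = 0.312 by edgeR).

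The 412 genes that moved in opposite directions comprised 262 that rose in Lachit and fell in Hacha and 150 that did the reverse. The changes were mostly modest, with medians of 0.89 in Lachit and -0.99 in Hacha for the former and of -0.86 and 0.95 for the latter. Both changes reached 2-fold in 75 and 40 of them. In 245 of the 262 genes and 144 of the 150, the libraries of the 2 solutions did not overlap in either variety, which also held for 54.8% of all tested genes. Since these genes were chosen by calls in both varieties, this separation is a description.

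Of these, 252 met the minimum of 10 CPM and 30 reads, and among the 252 OS10G0538450 on chromosome 10, with 1 transcript of 1165 bases, had the largest positive difference. In Lachit it rose from 4.37, 5.25 and 4.99 CPM to 97.1, 105 and 155 CPM, a log2 fold change of 4.61 (SE 0.23). In Hacha it stood at 0.479, 0.642 and 0.217 CPM in control, and the excess-iron libraries held 1 read each. The Lachit groups lay far apart, whereas the Hacha fall rests on 35 and 2 reads. The log2 difference was 7.48 (SE 0.73, adjusted p = 0.000218 by edgeR).

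OS11G0687100 on chromosome 11, with 1 transcript of 2348 bases, changed order between the varieties. Hacha roots held 28.6, 68.7 and 40.5 CPM in control and 5.34 and 3.99 CPM in excess iron. Lachit roots held 2.63, 1.89 and 2.4 CPM in control and 16.8, 30 and 13.8 CPM in excess iron. Hacha was above Lachit in every control library and below it in every excess-iron library. The log2 fold changes were -3.29 (SE 0.44) in Hacha and 3.13 (SE 0.38) in Lachit, and their difference was 6.42 (SE 0.59, adjusted p = 0.000177 by edgeR).

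OS08G0302000 on chromosome 8, with 1 transcript of 1505 bases, moved apart in the other direction. It rose in Hacha from 19.5, 16.6 and 16.3 CPM to 56.3 and 50.5 CPM and fell in Lachit from 5.4, 2.34 and 8.41 CPM to 0.607, 0.742 and 0.411 CPM. Hacha stood above Lachit in both solutions, and no groups of a variety overlapped. The log2 difference was -4.77 (SE 0.55, adjusted p = 0.000485 by edgeR).

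OS03G0246050 on chromosome 3, with 1 transcript of 1060 bases, moved toward a common level. Lachit roots held 9.29, 10.7 and 10.5 CPM in control and 5.01, 5.58 and 5.34 CPM in excess iron. Hacha roots held 0.111, 0.0755 and 0.0869 CPM in control, from 7 reads in all, and 1.51 and 1.42 CPM in excess iron. Lachit remained above Hacha in all libraries, by a log2 difference of 6.72 in control and 1.85 in excess iron. The log2 difference of the responses was -4.87 (SE 0.3, adjusted p = 3.61e-05 by edgeR). Sequence differences between a variety and the reference change how many of its reads can be matched; their part in the level differences between varieties was not tested.

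**Figure D4:**
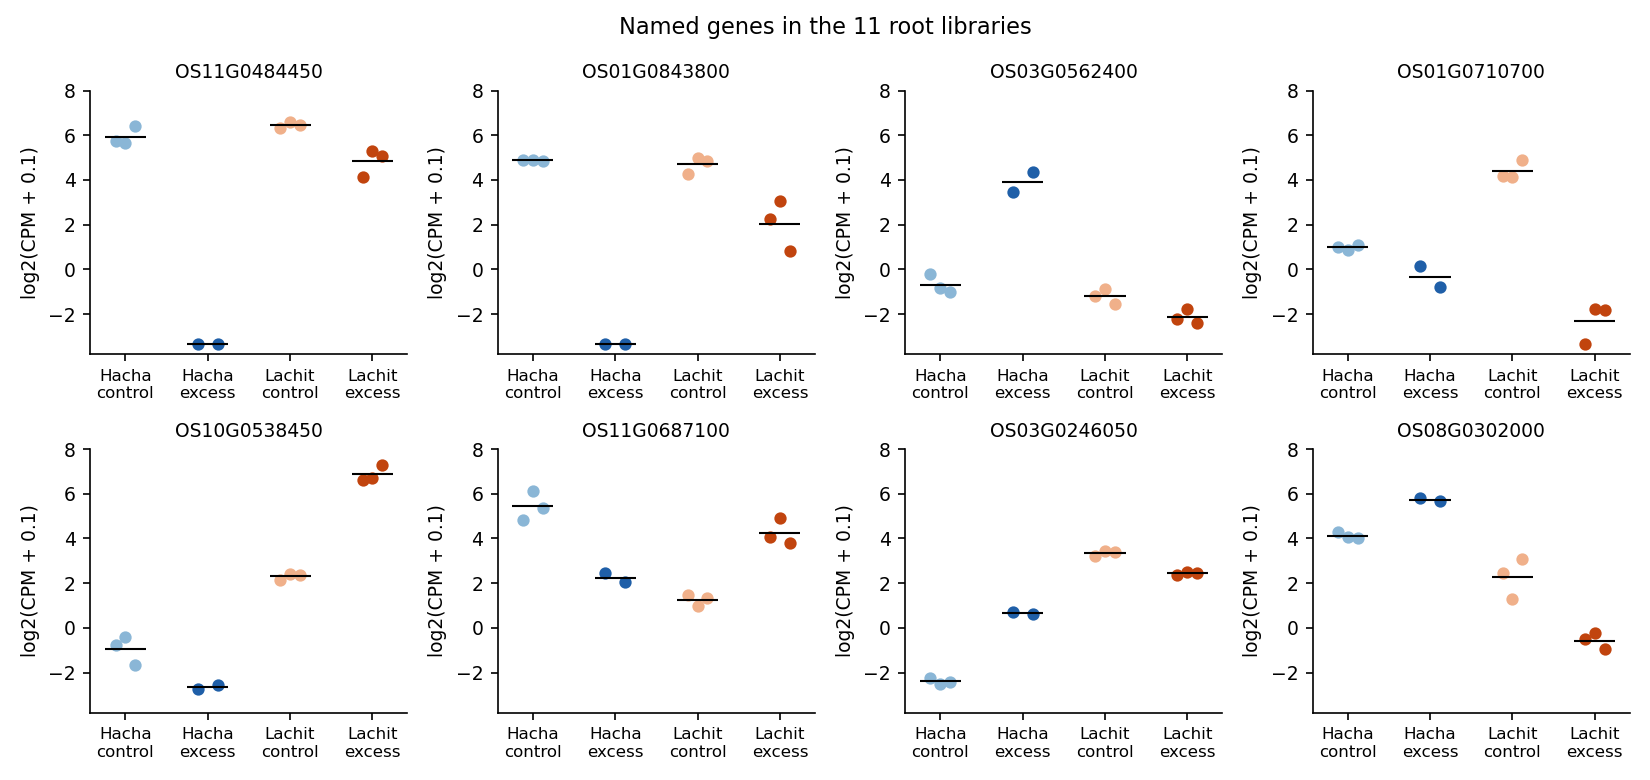
Level of the 8 described genes in log2(CPM + 0.1) (y axis) in the 11 root libraries by group (x axis); points are libraries and lines are group means. The genes had at least 10 CPM in the highest root group and at least 30 reads in the roots of each variety. Among such genes, the upper row shows those with the largest differences of either sign. In it, OS11G0484450 and OS01G0843800 are at no reads in Hacha excess iron. The lower row shows genes with opposite responses, such as OS11G0687100, which is higher in Hacha in control and higher in Lachit in excess iron.

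The same contrast was then made in the 12 leaf libraries, which the root test did not use. In leaves 4196 of 25505 tested genes (16.5%) differed in their response, 2166 higher (8.49%) and 2030 lower (7.96%) in Lachit. Of the 4646 root-called genes tested in leaf, 940 (20.2%) were called in leaf as well, which is 22.4% of the leaf-called genes; of the genes tested in both organs but not called in root, 15.8% were called in leaf. The direction was shared in 536 of the 940 genes (57.0%) and reversed in 404. Among the 643 genes with a higher response in Lachit roots, 52.7% were also higher in Lachit leaves. Of all leaf-called genes, 2166 of 4196 were higher in Lachit, so the 52.7% lay near the share over all. Of the 297 with a lower response in Lachit roots, 33.7% were higher in Lachit leaves. The share of common directions was not tested. The labels do not say whether roots and leaves were taken from the same plants. The leaf count is less firm than the root count, since it lay between 1244 and 6665 when any 1 leaf library was left out.

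The kinds of root response differed in how often leaves called them. Of the 255 genes that rose in roots of both varieties and more in Lachit and were tested in leaf, 92 (36.1%) had a differing leaf response, and of the 472 that rose in Lachit roots alone, 125 (26.5%). Among genes that fell in both and more in Hacha it was 230 of 1182 (19.5%), and among those that rose in Hacha alone 74 of 583 (12.7%). The differences between these shares were not tested. Of the 8 described genes, 6 were tested in leaf, and 3 of these were called there in the direction seen in root, each with a wide spread between replicates. OS11G0484450 had 645 reads in 1 of the Lachit excess-iron leaf libraries and none in the others, and none in Hacha excess-iron leaves. In control leaves it had 46, 517 and 94 reads in Hacha and 0, 0 and 4 in Lachit. OS03G0562400 had 126, 12 and 4 reads in Hacha excess-iron leaves, against 15, 12 and 27 in those of Lachit. In control leaves it had 0, 0 and 1 reads in Hacha and 19, 9 and 16 in Lachit. OS01G0843800 had 828, 91 and 637 reads in Lachit excess-iron leaves and 2, 7 and 8 in those of Hacha, so here the varieties did not overlap. In control leaves it had 5, 42 and 30 reads in Lachit and 9, 8 and 24 in Hacha. Its log2 difference of the leaf responses was 5.13 (SE 1.28, adjusted p = 0.0257 by edgeR).

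**Figure D5:**
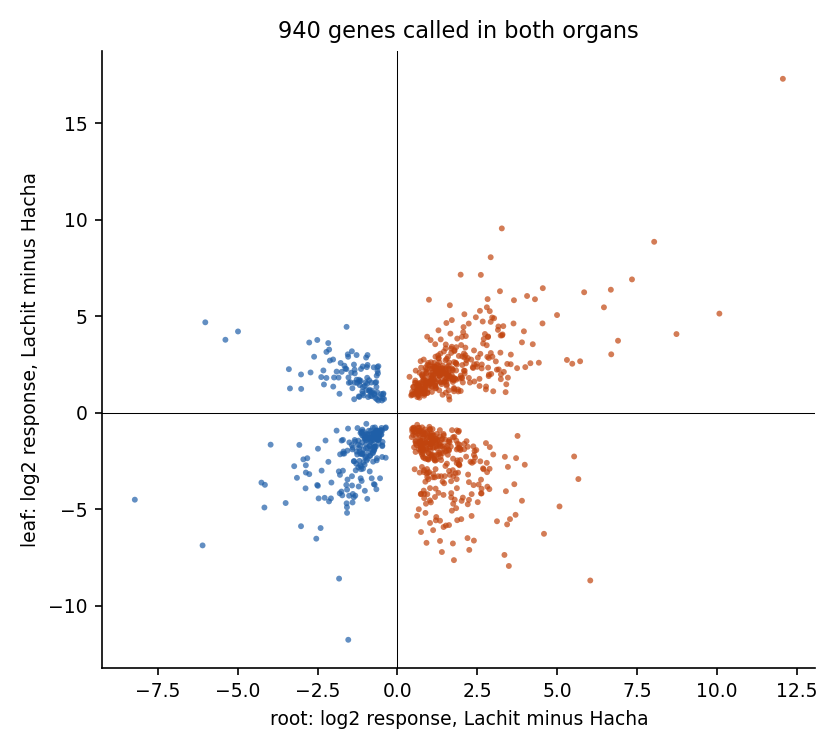
Log2 difference of the responses, Lachit minus Hacha, in leaf (y axis) against root (x axis) for the 940 genes called in both organs, 1 point per gene. Points fill all 4 quadrants, with 536 genes of the same sign and 404 of opposite sign.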

How the data were processed

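Total RNA of whole roots and L2 leaves was sequenced from TruSeq libraries, which do not mark strand, per the labels' protocols for the kit. The authors' estimated counts and TPM values come from kallisto on IRGSP-1.0, per the submitters' processing notes; the sources used here give neither version nor settings. The deposited estimated counts are not normalized, reads of near-identical copies were shared out by the program, and the deposited TPM values are relative to transcript length and to a common total per library. Transcript lengths and effective lengths are those of the deposited files.

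Here the 42346 transcripts were summed to 35679 genes and rounded. Libraries were grouped by title. The test was edgeR 4.0.16 (R 4.3.3): filterByExpr, TMM, robust quasi-likelihood F test over the 4 root groups, Benjamini-Hochberg over 27479 genes, called below 0.05; leaves were fitted separately. In simulated root counts with the same spread for every gene, 100 genes were given a log2 difference of 1 and 100 one of 2. The test recovered 14% of the former and 92% of the latter, and 4.5% of its calls were false. The changed genes were drawn from those above a minimum of expected counts, and the simulated responses to iron were capped. These shares therefore need not hold for genes with fewer counts or larger responses. Far more genes were called in the real data than were changed in the simulated data. The root common biological coefficient of variation was 17.7%. CPM are scaled by TMM. A group of no reads was given a floor of 3 counts, which covers counting error only. Genes were named by a rule: called, at least 10 CPM in the highest root group and at least 30 reads in the roots of each variety. The 2 largest and 2 most negative differences were then taken, over all such genes and over those with opposite responses. The 41 function lists planned could not be filled, since 1 identifier matched the RefSeq table of ASM3414082v1. Members, lists and rules were chosen with earlier results of these data known. Alternatives were DESeq2 1.42.0 and its size factors, library totals, no filter, limma 3.58.1 on log2(TPM + 1), a test against a 2-fold minimum (1 on the log2 scale), length offsets, a fit of both tissues and leaving out each library. A series-wide TPM table was not used.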

Additional observations from a re-analysis of the deposited data

Results flagged for a closer look

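The responses of the varieties differed by a test of the difference itself in 3415 root genes in which Lachit had the higher log2 response and 1917 in which it had the lower one, and in 4196 leaf genes. Of the genes described singly, the log2 difference of the root responses was 12.05 for OS11G0484450 and 10.07 for OS01G0843800, both without reads in Hacha roots in excess iron. It was 7.48 for OS10G0538450 and 6.42 for OS11G0687100. It was -6.09 for OS03G0562400, -6.08 for OS01G0710700, -4.87 for OS03G0246050 and -4.77 for OS08G0302000. Root groups of 2 or 3 libraries are too small for a search for single outlying libraries.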

How the results depend on the processing

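No paired analysis was possible because the numbers in the titles differ for every library and tie none together. Of 354 alternative values for counts and shares of called genes, 301 lay within 1.5 times the reported value. The 5332 genes with a differing root response became 2057 when both tissues shared a fit (1313 higher and 744 lower in Lachit), of which 2014 were among the 5332. Against a minimum log2 fold change of 1 they became 889, with 669 higher and 220 lower, since small differences no longer count. With that minimum, 7602 genes changed in Hacha and 6057 in Lachit. With limma on log2(TPM + 1), 5555 were higher, and with library totals 1274 were lower. DESeq2 called 6048 genes, 95.3% of the reported ones among them in the same direction. That share of the reported genes was 87.9% with library totals, 77.9% with limma and 37.8% in the fit of both tissues. Without the second Hacha control root library it was 68.4%.

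With the minimum of 1, 41.8% of the called genes changed in Hacha alone, 27.3% moved the same way but further in Hacha, 2.25% the same way but further in Lachit, and 2.25% moved apart. The order of the varieties turned in 1.24%, and they differed in both solutions in the same direction in 5.51%. In the fit of both tissues the order turned in 5.59%. In leaf, DESeq2 called 6488 genes, 3491 of them higher in Lachit, library totals gave 3705 higher, limma 4033 higher, and the minimum of 1 left 577, with 205 higher and 372 lower. The cause of the other shifts was not tested.

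Leaving out each library in turn gave 2801 to 5281 root genes, 1940 to 3405 higher and 861 to 2089 lower in Lachit, lowest for all 3 without the second Hacha excess-iron library, where the one left is taken to vary as the other root groups do. The share of genes that moved the same way and more in Lachit, 7.2% as reported, lay between 4.25% and 9.12%. In leaf the ranges were 1244 to 6665 genes, 484 to 3661 higher and 760 to 3004 lower. The share with the same direction in both organs lay between 55.0% and 61.9%. Of the 8 described genes, 7 kept direction and threshold under all 19 alternatives. OS11G0484450 lost the threshold in the fit of both tissues (adjusted p = 0.0703 by edgeR, range over its alternatives 5.24e-11 to 0.0703). With 2 Hacha excess-iron libraries, and few reads in the lowest level group, differences that missed the threshold are not shown to be absent. The function lists had no values to recompute.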

Other observations

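Genes with a differing root response were spread over all 12 chromosomes, as read from the identifiers. The share of tested genes called lay between 17.7% on chromosome 8 and 20.8% on chromosome 11, around the 19.4% of all tested genes. The share of called genes with a higher response in Lachit ran from 55.2% on chromosome 8 to 69.4% on chromosome 12.

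Genes with neighbouring identifiers went the same way more often than the typical pair. After a gene with a higher response in Lachit, the next tested identifier on the chromosome was also higher in 621 of 3414 cases (18.2%), against 12.4% over all such pairs, and lower in 4.98%, against 6.97%. After a gene with a lower response, the next was also lower in 218 of 1917 cases (11.4%), against 6.97%, and higher in 9.86%, against 12.4%. Most called genes stood alone. The longest run of consecutive tested identifiers with a higher response held 6 genes, on chromosome 7, and 5 runs held 5 genes; with a lower response the longest held 4. Without strand, reads of overlapping neighbours cannot be told apart, and their part in these runs was not tested.

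The longest transcript of a called gene was about as long as that of a tested gene. Its median was 1600 bases for genes with a higher and for those with a lower response in Lachit, and 1540 bases over all tested genes. Several transcripts were annotated for 19.0% and 22.2% of these genes, and for 18.4% of all tested genes.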
